A study of Mus musculus with 12 samples.

Results

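Transcripts of the surrogate light chain were followed in RNA sequencing of sorted hematopoietic stem cells of mice. The set has 4 genes, Igll1, Vpreb1, Vpreb2 and Vpreb3, taken by symbol from the 27179 genes listed in the deposited count table, and all 4 were among the 14473 genes that passed the filter on low counts. They were chosen by measured values, since Igll1, Vpreb1 and Vpreb2 were known to be lower with the transgene in these libraries (E against WT, and CE against C). Their values in the transgene comparisons are therefore given as a description, without a test. The stem cells came from 12 C57BL/6J mice, with 3 mice and 3 libraries for each of 4 genotypes. WT2, WT3 and WT4 were wild-type (WT), and E1, E2 and E3 carried the Eµ-myc transgene (E), which puts Myc under the enhancer of the immunoglobulin heavy chain locus and drives it in B-lineage cells. C1, C2 and C3 lacked Casp1 and Casp11 (C), the inflammatory caspase genes, and CE1, CE2 and CE3 carried Eµ-myc on the background without Casp1 and Casp11 (CE). The labels give no treatment, no age and no sorting gate.

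The surrogate light chain stands in for a conventional immunoglobulin light chain while a B-cell progenitor has rearranged its heavy chain locus and not yet a light chain locus. Igll1 encodes λ5, the part that resembles a constant region, and Vpreb1 and Vpreb2 encode near-identical forms of the part that resembles a variable region. Together with the µ heavy chain and the signalling chains Cd79a and Cd79b they form the pre-B-cell receptor, whose signal through Syk and Blnk drives expansion of progenitors that made a functional heavy chain. Vpreb3 encodes a related protein that binds µ chains inside the cell. Ebf1, E proteins such as Tcf3, and Pax5 are the regulators known to turn these genes on, and the transcripts serve as markers of pro-B and early pre-B cells.

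Igll1 and Vpreb1 are neighbours. On GRCm38 (mm10) Igll1 spans bases 16860671 to 16863985 of chromosome 16 and Vpreb1 bases 16868401 to 16869255, with 4415 bases between them. Vpreb2 lies 1110189 bases further along the same chromosome, at 17979445 to 17981274. Vpreb3 lies on chromosome 10, at 75943024 to 75949657. Sequence before the starts of the genes is shown because the 4 members moved together, and because the stretch shown for Vpreb2 shows how close this copy is to Vpreb1. The sequences are from the RefSeq promoter table of build GRCm38.p6, which had an entry for all 4 genes, and run 5′ to 3′ on the strand of the gene. Those of Igll1 (chr16:16863986-16864235, minus strand), Vpreb1 (chr16:16869256-16869505, minus strand) and Vpreb3 (chr10:75948050-75948299, plus strand) are the 250 bases before the listed start, which for Vpreb3 is the more downstream of 2 first exons in the GENCODE annotation. For Vpreb2 (chr16:17980315-17980420, plus strand) the 106 bases that line up with the last 106 before the Vpreb1 start are given. They lie inside the RefSeq span of Vpreb2 and upstream of its first exon in the GENCODE annotation. Capitals mark matches to motifs that were searched on both strands: CCCNNGGG, the core bound by EBF factors; the E-boxes CAGCTG and CAGGTG; ATTTGCAT, the octamer; and TGGGAA, an Ikaros core.
Igll1: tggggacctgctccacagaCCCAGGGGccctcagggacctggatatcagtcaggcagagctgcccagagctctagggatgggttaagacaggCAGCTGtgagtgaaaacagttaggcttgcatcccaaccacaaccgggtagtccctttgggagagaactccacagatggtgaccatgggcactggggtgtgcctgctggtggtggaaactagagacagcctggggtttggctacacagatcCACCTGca
Vpreb1: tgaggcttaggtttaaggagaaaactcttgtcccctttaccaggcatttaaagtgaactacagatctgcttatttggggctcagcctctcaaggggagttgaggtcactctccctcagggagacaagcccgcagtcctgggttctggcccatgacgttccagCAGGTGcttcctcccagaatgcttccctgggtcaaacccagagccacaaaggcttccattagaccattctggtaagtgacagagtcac
Vpreb2: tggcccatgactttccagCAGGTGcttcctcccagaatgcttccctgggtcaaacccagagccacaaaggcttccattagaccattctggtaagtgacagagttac
Vpreb3: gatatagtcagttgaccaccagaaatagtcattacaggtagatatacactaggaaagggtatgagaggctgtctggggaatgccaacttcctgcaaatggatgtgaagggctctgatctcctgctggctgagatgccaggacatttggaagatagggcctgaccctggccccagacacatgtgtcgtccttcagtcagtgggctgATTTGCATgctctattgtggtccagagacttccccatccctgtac
Igll1 had 1 match to CCCNNGGG, 1 to CAGCTG and 1 to CAGGTG, the last on the other strand, 8 bases before the start. Vpreb1 had 1 match to CAGGTG, 88 bases before its start, and the Vpreb2 stretch carried the same letters. Vpreb3 had 1 octamer, 45 bases before its start, and none of the printed stretches had a match to TGGGAA. No printed match overlapped another. The 250 bases listed for Vpreb2, which begin with the printed stretch, also held 1 match to CAGCTG and 1 to TGGGAA outside it. Of 32851 windows of 250 bases in the table, 11.8% held CCCNNGGG, 13.0% CAGCTG, 17.2% CAGGTG, 1.6% ATTTGCAT and 21.6% TGGGAA. These are matches of letters, and binding was not measured.

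The Vpreb2 stretch was 98.1% identical to the one before Vpreb1. The 2 differences are G12T and C104T, with the Vpreb1 base named before the position, the Vpreb2 base after it, and positions counted from the first shared base. The transcripts were almost as close. Of 759 aligned bases of the GENCODE transcripts of Vpreb1 (766 bases) and Vpreb2 (759 bases), 739 were identical (97.4%), and 32.8% of the 50-base windows of Vpreb2 occurred unchanged in Vpreb1. How the authors' counting assigned reads from shared stretches is not given in the sources used here, so the split between Vpreb1 and Vpreb2 is uncertain, and their sum is given beside them.

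The libraries held 24529611 to 34065910 counts, and C1 and C3 had a count for 22900 and 21247 genes against 17310 to 18863 in the others. Casp1 lay at 5.10 to 6.76 CPM (counts scaled by library size and TMM factor) in C and CE and at 29.8 to 47.8 in WT and E, in the direction of the labels. Casp4, the annotated name of Casp11, was at 7.07 to 9.96 CPM in C, below every WT library, and at 9.0 to 13.7 CPM in CE, overlapping the 12.5 to 17.2 in E. Gene-level counts of Casp4 thus left its loss unchecked. Myc overlapped between WT (393.6 to 447.3 CPM) and E (424.5 to 448.5), so it did not check the transgene label there. In CE it was at 344.6 to 409.5 CPM, above the 319.4 to 336.6 in C, in the direction of the label. The C libraries also lay below every WT library for Myc. Transcripts of the Y chromosome were present in C1 to C3, CE1 and CE2 and absent from WT, E and CE3, so the caspase label and sex cannot be told apart in most comparisons. Only CE held libraries of both kinds. A fit with these transcripts as a covariate thus takes its adjustment from CE3 against CE1 and CE2 alone. The sorted cells carried stem and progenitor transcripts, with a summed level of 14 stem cell markers of 1831.2 to 2430.6 CPM. It was carried largely by Cd34 (859.1 to 1157.2 CPM), Kit (363.9 to 508.1) and Gata2 (246.3 to 331.5). Other markers of the list were low, such as Procr at 8.28 to 18.4 CPM, Slamf1 at 3.38 to 5.05 and Hoxb5 at 0.566 to 1.94. Transcripts of granule proteins of myeloid progenitors were abundant as well (Mpo at 5456.3 to 9053.7 CPM), whereas Cd3e of T cells, Ly6g of neutrophils and Ms4a1 of mature B cells stayed at or under 0.875 CPM in every library. Other genes of the same marker lists were present throughout, among them Nkg7 at 128.9 to 224.2 CPM, Cd37 at 136.4 to 226.2, Cd72 at 20.4 to 37.2, Cd4 at 4.24 to 8.1 and S100a8 at 1.52 to 8.3.

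All members were lower with the transgene on both backgrounds, and they were low in absolute terms. Igll1, the λ5 gene, was at 23.1, 29.2 and 9.23 CPM in WT2, WT3 and WT4 and at 3.08, 5.41 and 3.44 CPM in E1, E2 and E3. In the caspase-deficient mice it was at 24.8, 44.0 and 34.4 CPM in C1, C2 and C3 and at 6.95, 7.24 and 5.03 CPM in CE1, CE2 and CE3. Every transgenic library lay below every library without the transgene. Without the transgene the group means were 20.5 ± 10.2 CPM (WT) and 34.4 ± 9.57 CPM (C), and with it 3.98 ± 1.25 CPM (E) and 6.4 ± 1.2 CPM (CE; SD, n = 3 each). The fitted level in E was 5.12-fold lower than in WT (log2 -2.36, SE 0.35), and that in CE was 5.37-fold lower than in C (log2 -2.43, SE 0.34). WT4 was the lowest wild-type library for this gene, at less than the level of either other one, and it was the lowest for each of the other members too.

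Vpreb1, the more abundant of the variable-like pair, followed the same order. It was at 18.2, 23.3 and 7.45 CPM in WT2, WT3 and WT4 and at 3.08, 4.36 and 2.41 CPM in E1, E2 and E3. It was at 16.8, 28.9 and 22.9 CPM in C1, C2 and C3 and at 4.91, 4.62 and 4.73 CPM in CE1, CE2 and CE3. The transgenic libraries again lay below all others, and those of CE were within a narrow band (4.75 ± 0.146 CPM, SD, n = 3). The fitted level was 4.93-fold lower in E than in WT (log2 -2.30, SE 0.34) and 4.81-fold lower in CE than in C (log2 -2.27, SE 0.33).

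Vpreb2, the near-copy, was the least abundant member in every library. It was at 1.97, 4.09 and 1.26 CPM in WT2, WT3 and WT4, and at 2.94, 6.05 and 4.15 CPM in C1, C2 and C3. In E1, E2 and E3 it had 4, 12 and 9 counts, or 0.167, 0.380 and 0.356 CPM, and in CE1, CE2 and CE3 it was at 1.28, 1.29 and 0.591 CPM. The E libraries lay below all of the others, while CE1 and CE2 lay just above WT4. The fitted level was 7.94-fold lower in E than in WT (log2 -2.99, SE 0.51), a value that rests on 25 counts in E, and 4.16-fold lower in CE than in C (log2 -2.06, SE 0.42). Without WT3 the log2 value in E against WT was -2.39. For the sum of Vpreb1 and Vpreb2, which does not depend on how reads were split between the copies, the means without the transgene were 18.7 ± 9.42 CPM (WT) and 27.3 ± 7.62 CPM (C), and those with it 3.59 ± 1.03 CPM (E) and 5.81 ± 0.444 CPM (CE; SD, n = 3 each). The sum was 5.20-fold lower in E than in WT (log2 -2.38, SE 0.34) and 4.69-fold lower in CE than in C (log2 -2.23, SE 0.33).

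Vpreb3, whose product acts inside the cell and is no part of the surface receptor, had the smallest fitted difference of the members in E against WT. It was at 8.18, 12.7 and 2.77 CPM in WT2, WT3 and WT4 and at 2.92, 2.94 and 2.73 CPM in E1, E2 and E3. WT4 fell among the E libraries, so these groups overlapped for this member. In C1, C2 and C3 it was at 11.1, 13.6 and 13.0 CPM and in CE1, CE2 and CE3 at 2.42, 2.24 and 2.04 CPM, with no overlap. The fitted level was 2.77-fold lower in E than in WT (log2 -1.47, SE 0.36) and 5.63-fold lower in CE than in C (log2 -2.49, SE 0.36). In all, 3 of the 4 members did not overlap and were lower in E than in WT, where 3.56% of the genes tested did the same, and 4 of 4 in CE against C, where 7.86% did; the choice of members fixes these counts. The summed level of the stem cell markers was higher with the transgene, at 2144.4 to 2286.9 CPM in E against 1831.2 to 2125.9 in WT and at 2342.4 to 2430.6 CPM in CE against 2128.3 to 2182.3 in C. Cd34, its largest part, overlapped in both comparisons, and the means of Gata2 and Ly6a were lower in E than in WT. The means of Hlf and Mecom, smaller parts, were higher with the transgene in both. The summed level of 10 mature B-cell markers overlapped, at 172.7 to 214.8 CPM in E against 182.8 to 266.6 in WT and at 221.8 to 251.8 CPM in CE against 235.7 to 255.6 in C. The sum is carried by Cd37 and Cd72, so it says little about rarer markers of that list, such as Ms4a1 and Fcrla. Ms4a1, near the floor, was at 0 in WT and 0.237 to 0.875 CPM in E. Fcrla, a B-cell Fc receptor-like gene, was at 0.402 to 1.28 CPM in WT and 1.46 to 3.8 in E. How many of all genes were higher in E without overlap is not given here, so these are values only. Ms4a1 and Fcrla overlapped between C and CE, with Ms4a1 at 0 to 0.0346 CPM in C and 0 in CE. Fcrla was at 0.518 to 0.686 CPM in C and 0.45 to 1.28 in CE. The part of these markers in the members' values was not tested. In bulk RNA of a sorted population, fewer cells carrying a transcript and less of it per cell cannot be told apart.

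**Figure D1:**
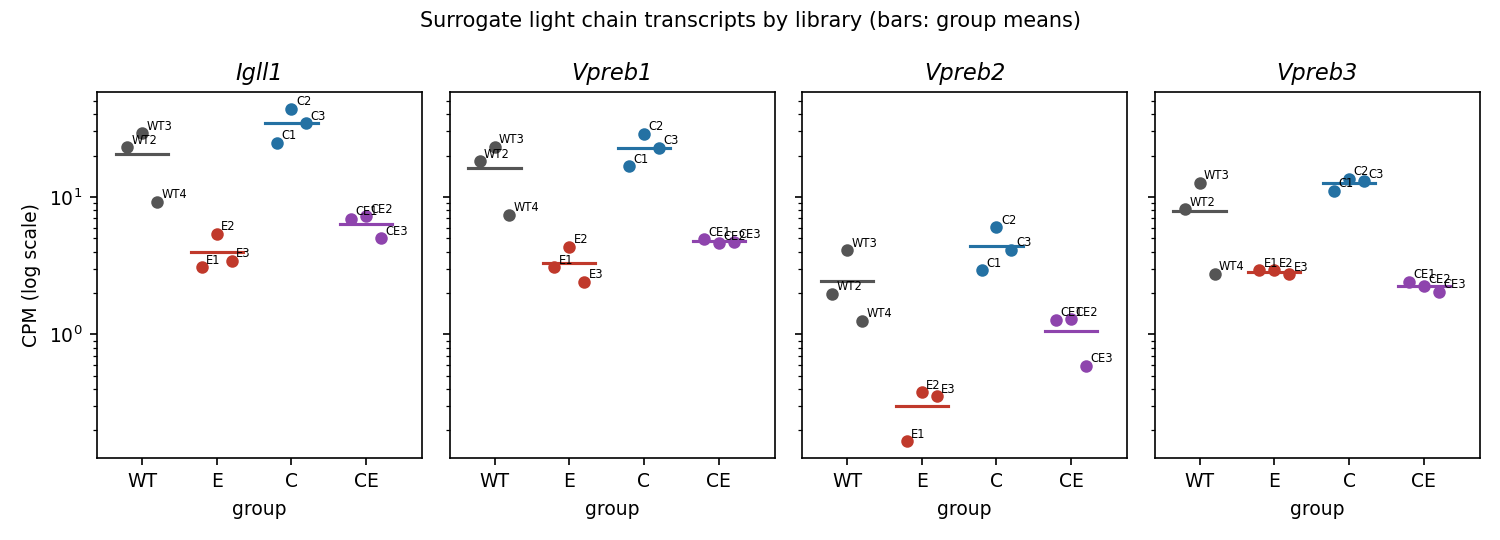
Level of each surrogate light chain gene in CPM (log axis) in the 12 libraries, by group, with a point per library and a bar at the group mean. E and CE libraries lie below those of WT and C, except that WT4 (2.77 CPM) falls among the E libraries for Vpreb3 and below CE1 and CE2 for Vpreb2.

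Levels of different genes can be compared only per length, here of their merged exons. In WT the levels were 13.6 ± 6.74 CPM per kb for Vpreb1, 9.48 ± 4.73 for Igll1, 9.18 ± 5.79 for Vpreb3 and 3.21 ± 1.94 for Vpreb2 (SD, n = 3 each), and the libraries of neighbours in this order overlapped. In E the order had Vpreb3 highest at 3.33 ± 0.137 CPM per kb, then Vpreb1 at 2.74 ± 0.828, Igll1 at 1.84 ± 0.579 and Vpreb2 at 0.396 ± 0.154 (SD, n = 3 each). In C Vpreb1 was highest again at 19.1 ± 5.06 CPM per kb, and in CE it was at 3.97 ± 0.122 (SD, n = 3 each). In E Igll1 and Vpreb2 did not overlap, while the other neighbours did. With the lengths of the longest transcripts the order in E turned, with Vpreb1 at 4.25 CPM per kb above Vpreb3 at 3.93, and Vpreb1 in WT was at 21.1. The receptor partners differed widely on the same scale in WT: Cd79a, a signalling chain, was at 9.42 CPM per kb, close to Igll1, whereas Cd79b was at 37.8 and the µ heavy chain gene Ighm at 256.2.

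Proportions within a library give a view that does not depend on its depth. Igll1 had about as many counts as Vpreb1 and Vpreb2 together in every library, from 0.944 counts per count in CE3 to 1.27 in C3. The C libraries, at 1.26 to 1.27, lay above those of WT (at most 1.15) and CE (at most 1.22). Vpreb3 had 0.354, 0.436 and 0.300 counts per Igll1 count in WT2, WT3 and WT4, but 0.946, 0.544 and 0.793 in E1, E2 and E3. The mean ratio was 0.379 ± 0.0693 for C and 0.354 ± 0.048 for CE (SD, n = 3 each), so the E libraries stood above all others. The ratios were taken up after the values had been seen and draw on values that chose the members, so they are given without a test.

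The Vpreb2 share of the Vpreb1 and Vpreb2 counts was 9.80, 14.9 and 14.4% in WT2, WT3 and WT4 and 5.13, 8.0 and 12.9% in E1, E2 and E3. In C it was 14.9, 17.3 and 15.3%, and in CE1, CE2 and CE3 it was 20.7, 21.8 and 11.1%. The intervals were wide where counts were few, such as 1.41 to 12.6% in E1 (exact Clopper-Pearson, 95%, counting error only), against 15.2 to 19.6% in C2. Shares overlapped between groups in each of the 4 comparisons. The mean share differed by -4.39 percentage points in E against WT and by 2.04 in CE against C, given as a description. It differed by 2.78 points in C against WT and by 9.21 in CE against E, each with p = 0.2 in the exact two-sided permutation test. Each adjusted p was 0.267 over all 4 comparisons, those with the transgene included. With 3 libraries a group this test cannot go below 0.1 and so could not have passed.

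**Figure D2:**
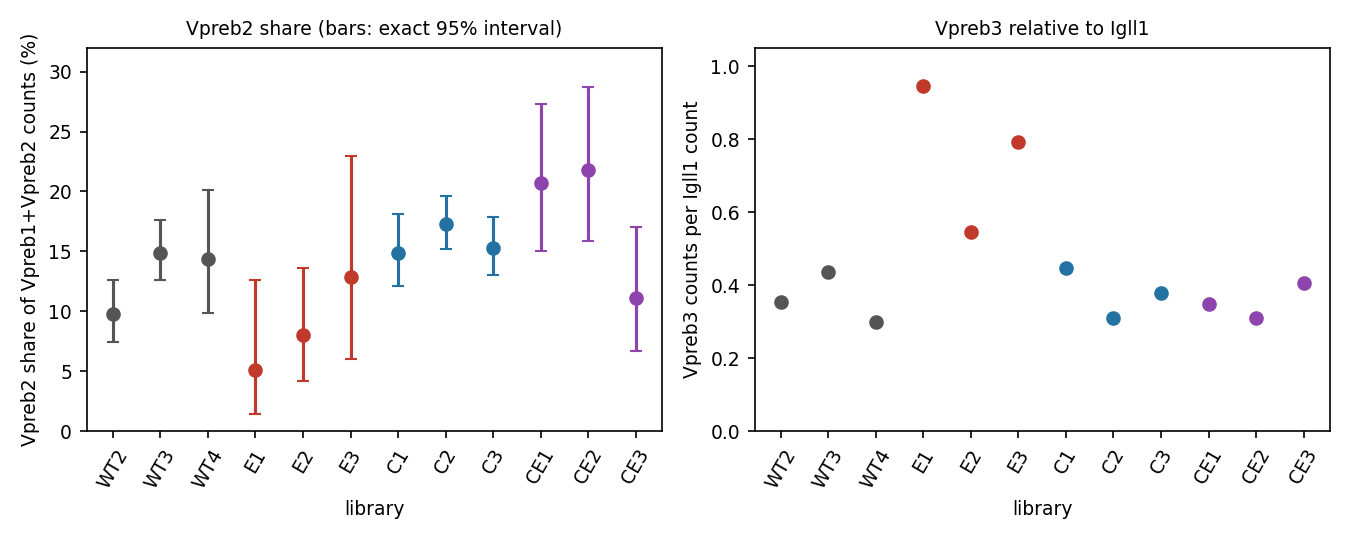
Left, the Vpreb2 share of Vpreb1 and Vpreb2 counts in percent per library, with exact 95% intervals; right, Vpreb3 counts per Igll1 count per library. Colours mark the groups named by the libraries. The shares overlap between groups, whereas the Vpreb3 ratio is 0.544 to 0.946 in E and at most 0.448 in all other libraries.

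The comparisons of caspase genotype were not used to choose the members. In C against WT all 4 were higher in C and none passed at an adjusted p under 0.05 in edgeR's quasi-likelihood test, where 0.656% of the 14473 genes tested passed. The log2 differences were 0.74 for Igll1 (SE 0.32, adjusted p = 0.181), 0.48 for Vpreb1 (SE 0.31, adjusted p = 0.36), 0.83 for Vpreb2 (SE 0.39, adjusted p = 0.219) and 0.66 for Vpreb3 (SE 0.33, adjusted p = 0.243). For the sum of the Vpreb1 and Vpreb2 counts it was 0.54 (SE 0.31, adjusted p = 0.306). The libraries of WT and C overlapped for every member, where 26.3% of all genes did not. WT3 reached into the range of C for each, and WT2 did so for Vpreb1. Without WT3 the value for Vpreb3 was 1.18 and passed (adjusted p = 0.0448, range over the single removals 0.0448 to 0.458). With no filter on low counts Igll1 (adjusted p = 0.00453) and Vpreb3 (adjusted p = 0.0495) passed, and with Y-linked transcripts as a covariate the value for Vpreb2 turned to -0.28 (adjusted p = 0.895).

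In CE against E, 3 members were higher in CE and Vpreb3 was lower, and none passed, where 1.58% of the genes tested passed. Vpreb2 had the largest difference, 3.40-fold (log2 1.76, SE 0.54, adjusted p = 0.0834), with every CE library above every E library. Igll1 differed by 0.67 (SE 0.36, adjusted p = 0.278) with overlap, and Vpreb1 by 0.52 (SE 0.35, adjusted p = 0.388) without. Vpreb3 differed by -0.36 (SE 0.38, adjusted p = 0.602), with CE at 2.04 to 2.42 CPM against 2.73 to 2.94 in E. Thus 3 of 4 members did not overlap between CE and E, where 29.9% of all genes tested did not. The sum of Vpreb1 and Vpreb2 differed by 0.68 (SE 0.34, adjusted p = 0.253), less than Vpreb2 alone. Without WT4, which enters this comparison through the shared estimate of spread, Vpreb2 passed at 1.76 (adjusted p = 0.0327). It also passed with DESeq2 (1.79, adjusted p = 0.0136) and in a fit of CE and E only (1.76, adjusted p = 0.041), and with the Y-linked covariate it was 0.94 (adjusted p = 0.466).

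A further quantity is the difference between the transgene effects on the backgrounds, (CE against C) less (E against WT). No gene among all those tested passed in edgeR for this quantity (0% of 14473; 305 had an unadjusted p under 0.05, and DESeq2 and limma voom also called 0). For the members it is built from the comparisons that chose them and is given as a description. The values were -0.07 for Igll1 (SE 0.48), 0.04 for Vpreb1 (SE 0.46), 0.93 for Vpreb2 (SE 0.67) and -1.02 for Vpreb3 (SE 0.50). The drop was thus neither shown to differ between the backgrounds nor shown to be alike.

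**Figure D3:**
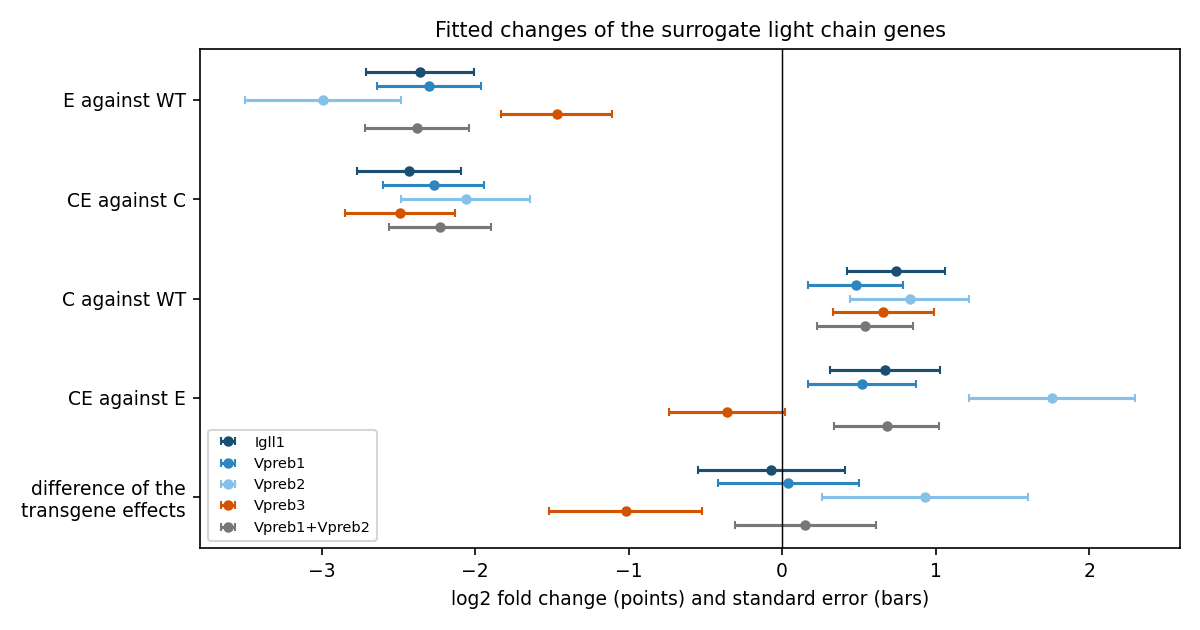
Fitted log2 fold change (point) and its standard error (bar) of the 4 members and of the summed Vpreb1 and Vpreb2 counts in the 5 comparisons. In both transgene comparisons all points lie at -1.47 or lower; in the caspase comparisons they lie between -0.36 and 1.76, and in the difference of the transgene effects between -1.02 and 0.93.

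Of the 3 partners of the surrogate light chain in the receptor, 1 passed in CE against C. Cd79a, a signalling chain of the receptor, fell 5.99-fold (log2 -2.58, SE 0.35, adjusted p = 0.00708 by edgeR). Its mean was 4.67 ± 0.515 CPM in CE against 28.0 ± 5.64 CPM in C (SD, n = 3 each). Cd79b, the other signalling chain, differed by -0.29 (SE 0.13, adjusted p = 0.921) and Ighm by -0.33 (SE 0.28, adjusted p = 0.999). Of 55 listed genes of the receptor and of early B-cell stages, 54 were tested, with Mme, a surface enzyme, too low. Among these, 8 fell and 0 rose, where 0.207% of all genes tested passed (0.145% lower). The list's median log2 value was -0.30 against 0.01 over all genes. The list was drawn up with earlier results of these data known. Its counts and p-values, here and in the other comparisons, are therefore descriptions and no independent support.

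Among the signalling genes, Blnk, the adaptor below Syk, fell 2.61-fold (log2 -1.39, SE 0.25, adjusted p = 0.0342). Syk itself, the kinase that acts on the receptor chains, differed by 0.05 (adjusted p = 0.999). Among 18 regulators, Pax5, which commits cells to the B lineage, fell 6.25-fold from 4.18 ± 1.01 to 0.666 ± 0.336 CPM (SD, n = 3 each, adjusted p = 0.0137). Pou2af1, a coactivator of octamer factors, fell 6.37-fold (adjusted p = 0.0246) and Lef1, a Wnt-pathway factor of early lymphocytes, 4.48-fold (adjusted p = 0.0322). Ebf1, the factor known to act on the surrogate light chain genes, had a value of -2.40 that did not pass (SE 0.52, adjusted p = 0.123), with a mean of 0.925 ± 0.376 CPM in CE against 4.89 ± 0.988 CPM in C (SD, n = 3 each). Tcf3, the E protein gene, differed by -0.08 (adjusted p = 0.999).

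Among 14 tested companions of the pro-B and pre-B stages, Akap12, a kinase anchor protein gene, fell 3.79-fold (adjusted p = 0.0228) and Rag1, a recombinase subunit, fell 3.30-fold (adjusted p = 0.0337). Dntt, which adds bases at rearranging joints and is also made in lymphoid-primed progenitors, stayed abundant, at 433.7 ± 100.9 CPM in CE against 574.1 ± 54.1 CPM in C (SD, n = 3 each; adjusted p = 0.943). None of the 4 conventional light chain genes passed. The count of 8 rested on single libraries: it was 5 without C1, 1 without C2 or without C3, 0 without CE1 or without CE3, 2 without CE2 and 5 without E3. It was 0 without C1 and C3 together. With Y-linked transcripts as a covariate Cd79a alone passed (log2 -2.57, adjusted p = 0.0448).

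In E against WT 0 of the 54 genes passed in edgeR, where 0.0829% of all genes did. At an unadjusted p under 0.05 there were 12, of which 9 were lower, and DESeq2 called Bst1 and limma voom called Cd79a. Of all 14473 genes tested, 952 had an unadjusted p under 0.05 in edgeR, and DESeq2 called 48 and limma voom 17. The list's median was 0.03 against -0.00 over all genes. Values with a small p were -1.56 for Cd79a (SE 0.35, adjusted p = 0.227), -1.54 for Bst1, an enzyme on early B cells and stroma (SE 0.36, adjusted p = 0.248), -2.28 for Ebf1 (SE 0.59, adjusted p = 0.361) and -1.50 for Lef1 (SE 0.39, adjusted p = 0.361). As with Vpreb3, the libraries of WT were spread: Cd79a was at 12.7, 22.2 and 6.28 CPM in WT2, WT3 and WT4 and at 6.04, 4.97 and 3.04 CPM in E1, E2 and E3. Without WT4, 3 genes of the list passed, and the number over all genes in that fit is not given here.

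**Figure D4:**
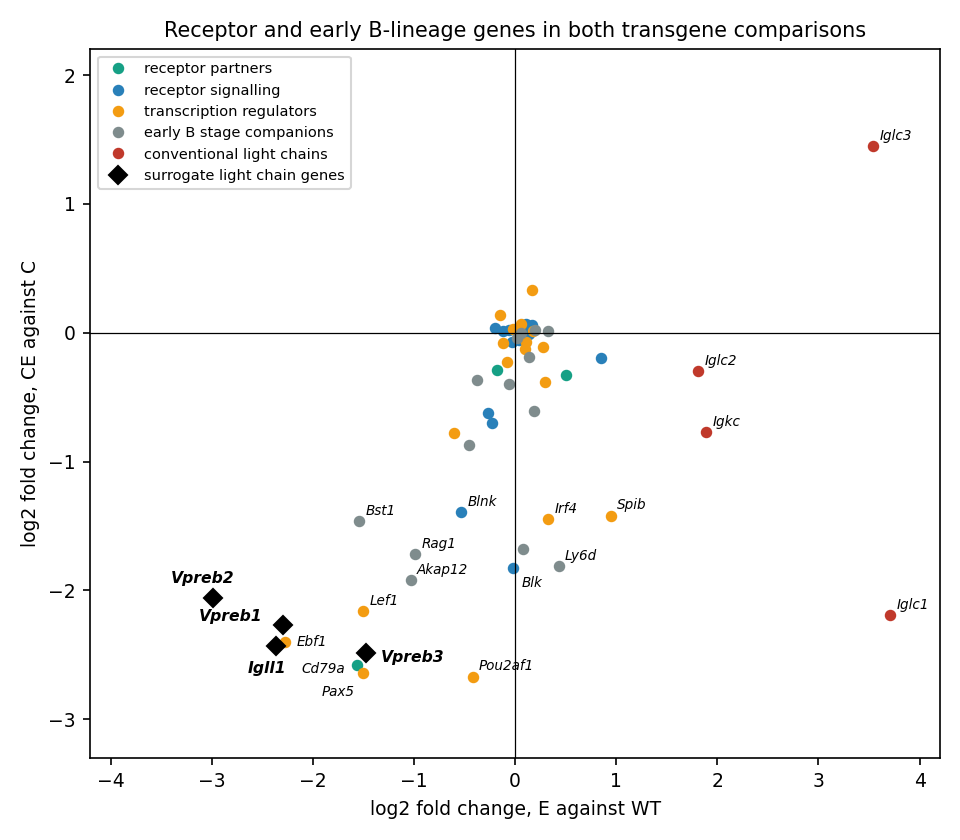
Log2 fold change in E against WT (horizontal) and in CE against C (vertical) of tested genes of the receptor and of early B-cell stages, coloured by list, with the 4 surrogate light chain genes as black diamonds. The members, Ebf1, Cd79a and Pax5 lie in the lower left, and the conventional light chain genes lie to the right.

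In C against WT 40 of the 54 genes were higher and the median was 0.22 against -0.01 over all genes, and 1 passed, where 0.359% of all genes passed as higher. Rag1 rose 3.30-fold (log2 1.72, SE 0.31, adjusted p = 0.0382 by edgeR), with means of 21.6 ± 7.19 CPM for C and 6.53 ± 2.99 CPM for WT (SD, n = 3 each). Cd79a was higher by 1.02 without passing (SE 0.33, adjusted p = 0.0898). The call of Rag1 was lost with the Y-linked covariate (log2 0.93, adjusted p = 0.539), whose adjustment rests on the single library CE3 against CE1 and CE2. It was also lost without WT2, C2, C3, CE1, CE2 or E3 (adjusted p between 0.0513 and 0.211). Without WT3 the list had 11 calls and without WT4 it had 8, with the number over all genes not given here. In CE against E 0 of 54 passed in edgeR, 19 had an unadjusted p under 0.05, and DESeq2 called 6 and limma voom 2. Of all 14473 genes tested, 3271 had an unadjusted p under 0.05 in edgeR, and DESeq2 called 1182 and limma voom 1392. Rag1 differed there by 0.99 (SE 0.33, adjusted p = 0.104), and the smallest p belonged to Igkc, the κ constant region, at -3.51 (SE 0.86, adjusted p = 0.0528). The list count in CE against E was 6 without WT4, 3 without WT2 and 1 without E3, again without the number over all genes. In the difference of the transgene effects 0 of 54 passed in edgeR, DESeq2 and limma voom. An unadjusted p under 0.05 in edgeR was found for 9, where 305 of all 14473 genes had one. All 9 had the more negative value in CE against C.

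Conventional light chains, which replace the surrogate later in development, did not pass in E against WT, but were high in part of the E libraries. Igkc was at 29.2, 83.3 and 45.1 CPM in WT2, WT3 and WT4 and at 252.9, 310.8 and 22.7 CPM in E1, E2 and E3. E1 and E2 were thus high and E3 was below all wild-type libraries. Jchain, which joins secreted antibody, was at 76.7, 85.3 and 6.48 CPM in E1, E2 and E3 against 5.81 to 21.5 in WT, and Mzb1, a chaperone of antibody-secreting cells, was at 22.0, 38.1 and 3.99 CPM in E. Ms4a1, the mature B-cell marker encoding CD20, was at most 0.875 CPM. Within E the members varied less: E1 was the lowest library for Igll1 and Vpreb2, and E3 was the lowest for Vpreb1 (2.41 against 3.08 and 4.36 CPM in E1 and E2) and for Vpreb3 (2.73 against 2.92 and 2.94 CPM). Without E1 and E2 the members differed in E against WT by -2.59 for Igll1, -2.77 for Vpreb1, -2.79 for Vpreb2 and -1.55 for Vpreb3. The summed level of 7 plasma cell markers was 194.6 to 304.9 CPM in E against 188.6 to 239.7 in WT, and 139.3 to 235.4 CPM in CE against 155.4 to 177.4 in C, and its part in the results was not tested. Igkc was at 10.8 to 55.2 CPM in C and at 5.95 to 36.7 in CE.

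The members followed each other closely. Over the 12 libraries Pearson r between pairs of members, on log2 CPM, was 0.819 for Vpreb2 with Vpreb3 and 0.99 for Igll1 with Vpreb1, the lowest and highest of the 6 pairs. With the group means taken out, the lowest was 0.68 for Vpreb1 with Vpreb2 and the highest 0.937 for Igll1 with Vpreb1, so that libraries of 1 genotype that were high in 1 member tended to be high in the others. The drop with the transgene, by which the members were chosen, by itself raises r over the 12 libraries. The libraries share their preparation and groups, and these values are descriptions.

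The 10 genes whose log2 CPM followed the mean of the members most closely, out of 12517 candidates, included 6 of the listed genes of the receptor and early B-cell stages. Of the 14473 genes tested, 54 were on these lists. The mean of the members carries the drop on which they were chosen, so genes lower with the transgene rank high by construction. The lists were also drawn up with earlier results known, so the 6 are a description. Among these were Lef1 and Cd79a (r = 0.957 each), Ebf1 (0.951), Bst1 (0.931) and Akap12 (0.919). The other 4 belonged to no list. Gfra2, a receptor subunit for GDNF-family ligands, had the highest r of all (0.98) and was at 5.48, 8.45 and 2.21 CPM in WT2, WT3 and WT4, at 0.870 to 1.74 in E, at 1.42 to 2.17 in CE, and highest with a mean of 12.8 ± 2.62 CPM for C (SD, n = 3). Bfsp2, a lens filament gene (0.976), was at 4.08 to 4.79 CPM in E and 5.54 to 6.19 in CE, against 9.53 to 15.9 in WT and 14.5 to 21.2 in C, with no overlap between the transgenic libraries and the rest. Cecr2, a chromatin protein gene (0.937), and Pkd1l3, a polycystin-family gene (0.907), made up the rest. After the group means were taken out, another 10 genes were closest, with 0 shared, and r for Gfra2 was 0.896.

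**Figure D5:**
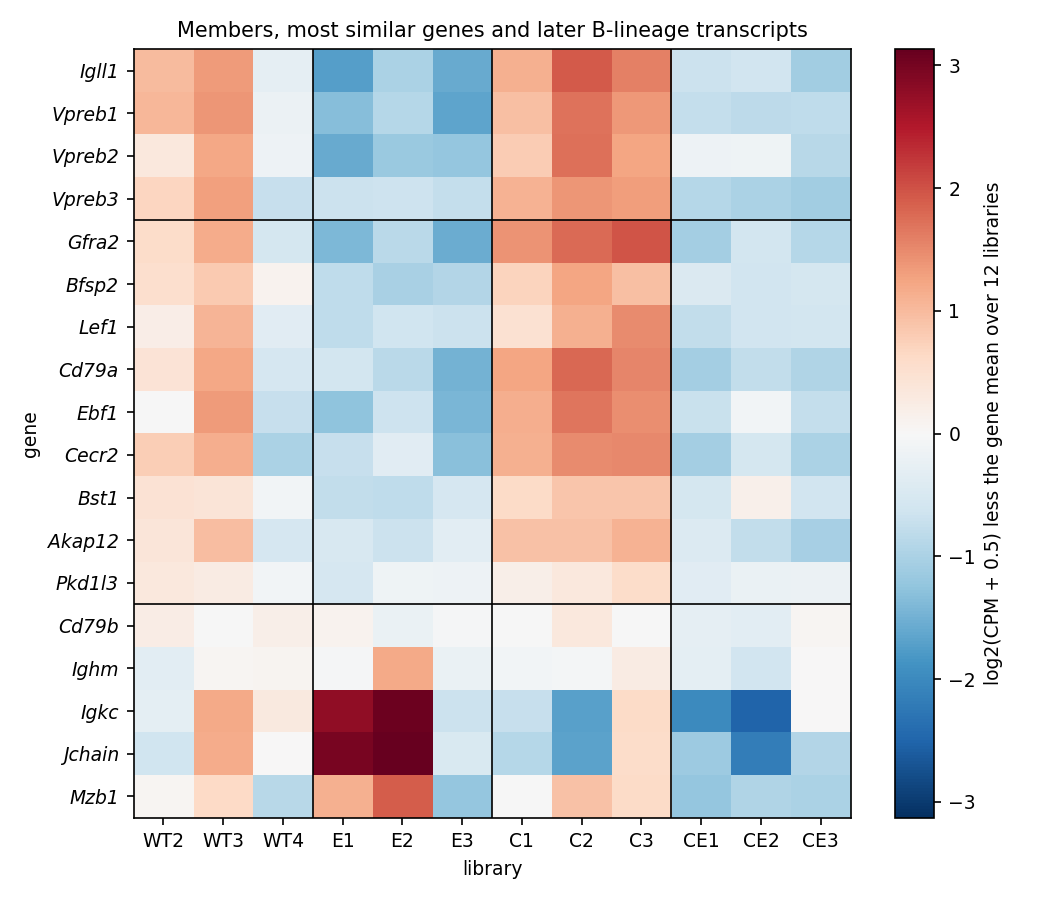
Log2(CPM + 0.5) of each gene less its mean over the 12 libraries (colour scale) for the 4 members (top block), genes most like them (middle) and receptor partners and transcripts of later B-lineage stages (bottom), with vertical lines between groups. Members and similar genes are low in E and CE and in part of WT4, whereas Igkc and Jchain are high in E1 and E2.

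Genes beside the members did not pass with the transgene, like nearly all genes tested. Of 18 annotated genes whose lower coordinate lies within 100 kb of that of a member, 13 were tested, and 0 passed in edgeR in either transgene comparison. Over all genes tested, 0.0829% passed in E against WT and 0.207% in CE against C, so 0 of 13 sets the neighbours apart from no other genes. Their log2 values were -0.51 to 0.40 in E against WT and -0.59 to 0.18 in CE against C. Top3b, a topoisomerase gene 2321 bases from Vpreb1 by this measure, differed by -0.12 in E against WT (adjusted p = 0.804) and by -0.01 in CE against C (adjusted p = 0.999). Ppm1f, a phosphatase gene 28068 bases from it, differed by -0.05 in both (adjusted p = 0.928 and 0.999). In C against WT, Mmp11, a matrix protease gene 19803 bases from Vpreb3, was higher by 1.10 and passed (adjusted p = 0.0499), where 0.656% of all genes tested passed.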

How the data were processed

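RNA of sorted hematopoietic stem cells of 12 mice was sequenced, with 1 library per mouse. The authors deposited raw counts per gene for all libraries. Alignment with STAR 2.5.3 to mm10 is per the submitters' processing notes; for the read counter, its strandedness and its rule for reads matching several places, the sources used here give nothing. Symbols came from RefSeq by gene number, which matched 25275 of 27179 genes.

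All 12 libraries were fitted together in edgeR 4.0.16 (TMM factors, filterByExpr by group, group means, two-sided quasi-likelihood tests), with Benjamini-Hochberg adjustment over 14473 genes and a threshold of 0.05. The labels do not say that mice with the same number are related, and the p-values measure the spread between mice. Standard errors were derived from the F statistic. Levels per kb use exons of GENCODE M21, since RefSeq exon lengths were not used here. Shares were compared by exact permutation (scipy 1.17.1).

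The members, gene lists and tests were chosen with earlier results of these data known. Named genes are the members, list genes past the threshold (otherwise those with the smallest p), the 10 most similar genes by Pearson r on log2 CPM (prior count 2, mean at least 0) and genes within 100 kb, counted between lower coordinates. Others named in passing, among them Jchain, Mzb1, Syk, Tcf3, Dntt and the targeted genes, were chosen for their role or after their values were seen. Alternatives used RLE factors, no filter, a stricter filter, DESeq2 1.42.0, limma voom with quality weights (limma 3.58.1), only the groups compared, a replicate block, a Y-linked covariate, or left out libraries. The fit was tested on simulated data. Some results under the rule for named genes are left out of the text and figures.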

Additional observations from a re-analysis of the deposited data

How the results depend on the processing

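The members' values in E against WT and CE against C kept their sign in every alternative and every removal of a library. Over the removals of 1 library, Igll1 ranged from -2.69 to -2.02 in E against WT and from -2.61 to -2.21 in CE against C. Vpreb1 ranged from -2.63 to -1.96 and from -2.45 to -2.06, Vpreb2 from -3.28 to -2.39 and from -2.27 to -1.75, and Vpreb3 from -1.86 to -0.95 and from -2.57 to -2.43. With no filter on low counts, Igll1 passed in C against WT (0.71, adjusted p = 0.00453) and CE against E (0.67, 0.0254), Vpreb2 (1.77, 0.000973) and the Vpreb1 and Vpreb2 sum (0.68, 0.0254) in CE against E, and Vpreb3 in C against WT (0.63, 0.0495). Vpreb2 in CE against E also passed with DESeq2 (1.79), the replicate block (1.80) and only the groups compared (1.76), and ranged from 1.5 to 2.06 over the removals (0.34 to 1.25 for its difference of the transgene effects). Vpreb3 in C against WT ranged from 0.28 to 1.18. The difference of the transgene effects for Igll1 turned to 0.35 with limma voom, 0.25 with the replicate block, 0.08 with the Y-linked covariate and 0.17 without E1 and E2, and over the removals it ranged from -0.4 to 0.26. That of Vpreb1 turned to -0.31, and that of the sum to -0.22, without C1 and C3, and they ranged from -0.3 to 0.36 and from -0.22 to 0.47. Vpreb2 in C against WT turned to -0.28 with the Y-linked covariate, whose adjustment rests on CE3 against CE1 and CE2 alone. Why these values moved was not tested.

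The count of receptor and early B-cell genes past the threshold in E against WT (0) was 12 with no filter, 1 with the replicate block, 1 with DESeq2, 1 with limma voom, and 0 to 3 over the removals. In CE against C (8) it was 16 with no filter, 14 with limma voom, 13 with only the groups compared, 1 with the Y-linked covariate, 0 without C1 and C3, and 0 to 9 over the removals. In C against WT (1) it was 9 with no filter, 4 with DESeq2, 6 with limma voom, 6 with the replicate block, 0 with the Y-linked covariate, only the groups compared or without C1 and C3, and 0 to 11 over the removals. In CE against E (0) it was 13 with no filter, 1 with the stricter filter, 6 with DESeq2, 2 with limma voom, 8 with the replicate block, 7 with only the groups compared, and 0 to 6 over the removals. For the difference (0) it was 7 with no filter. Over all 14473 genes tested, DESeq2 called 48 in E against WT, 66 in CE against C, 1195 in C against WT and 1182 in CE against E. The counts for limma voom were 17, 109, 1773 and 1392, in the same order. For the other settings and the removals, the number over all genes is not given here. A change of the list count under those is thus not a result about the listed genes.

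Mice with the same number did not deviate together: over 15 same-numbered pairs the correlation of deviations ran from -0.244 to 0.166, with 4 over 0.1, so the replicate block rests on a shared number alone. Leaving out C1 and C3 together, and E1 and E2 together, was chosen after seeing the data. Where a removal leaves 1 library in a group, its spread is taken to be that of the remaining groups. Depth limits Vpreb2 most, with 25 counts in the E libraries together.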

Other observations

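Likeness to the members within the genotypes gave another order than likeness over all libraries. After the group means were taken out, the 10 closest genes were Zbtb33 (r = 0.957), Tmem123, Eps15, Cgas, Galnt7, Eaf1, Zfp748, Prmt3, Rag2 and Taf1 (0.931). Of these, Rag2, the partner of Rag1 in the recombinase, was the 1 gene from the receptor and early B-cell lists. It also had r = 0.931, against 0.33 with the group means left in. Its level was 5.70, 9.70 and 3.29 CPM in WT2, WT3 and WT4, in the same order as the members there. It was at 7.17 ± 0.332 CPM in E, with a mean of 6.23 ± 3.24 in WT (SD, n = 3 each, log2 0.19, SE 0.27, adjusted p = 0.896 by edgeR). Some listed genes ran the opposite way within the genotypes: r was -0.912 for Procr, a stem cell marker, -0.786 for Mpo and -0.776 for Spi1, a myeloid and B-cell regulator. Procr, Mpo and Spi1 had the lowest values of the listed genes and were picked after these were seen. These are descriptions over 12 libraries that share groups and depth.

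Cd79b and Ighm, which share a receptor with Igll1, Vpreb1 and Vpreb2, showed little likeness to the mean of the members, with r = 0.422 and -0.0473 over the 12 libraries. Cd79b reached 61.4 CPM in C2 and had means of 54.0 ± 4.5 CPM in WT and 47.7 ± 5.04 CPM in E (SD, n = 3 each). Ighm lay between 328.5 CPM in CE2 and 1140.0 CPM in E2.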
